A study of Canis lupus familiaris with 6 samples.

Results

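TGF-beta, activin and BMP signalling was followed through 46 genes of the array's annotation, out of 34378 gene names and accessions carried by its probes. A gene was taken if its array name began with TGFB, BMP, SMAD, INHB, ACVR or LTBP, or was FST, GREM1, NOG, ID1, ID2, ID3, SKIL or INHA, and each gene was represented by its brightest probe. No probe carried the name FST, NOG, ID1, ID2 or SMAD3. The cells were MDCK-pTR GFP-RasV12 cells, a dog kidney epithelial line (Madin-Darby canine kidney, MDCK) in which tetracycline switches on GFP-tagged RasV12, an always active form of the Ras oncoprotein. They were grown alone (3 samples) or mixed with normal MDCK cells (3 samples), and all 6 cultures received tetracycline for 24 h before the GFP-positive cells were sorted for RNA, so that RasV12 and tetracycline were common to both groups. The comparison asks what differs in the transformed cells when they grow mixed with normal cells. Contact and secreted factors cannot be told apart in it. According to the methods, 10 normal cells surrounded each RasV12 cell, but for mixed replicate 2 the label states 100. The labels' RNA protocol mentions a beta-catenin mutant in the cells, which the titles, the sources and the methods do not give to them. The 3 alone samples lay on 1 slide and the 3 mixed samples on another, so slide and culture cannot be told apart in any result given here. The labels do not say whether the 3 samples of a group were separate cultures, and the p-values measure the spread between these samples, which may be technical.

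The ligands of this superfamily are secreted dimers that bring together type I and type II serine/threonine kinase receptors, and the type I receptor phosphorylates receptor Smads, which enter the nucleus with SMAD4. TGF-beta and activin ligands act mainly through SMAD2 and SMAD3, BMP ligands mainly through SMAD1, SMAD5 and SMAD9, and SMAD6 and SMAD7 inhibit the pathway. In epithelia, TGF-beta restrains growth and can drive loss of epithelial character, while BMP ligands have ID genes as their classical targets. Secreted antagonists such as follistatin (for activins) and gremlin (for BMPs) bind ligands before they reach the receptors.

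The probes behind the main results are 60 bases long and are shown because each value below is the signal of 1 such oligonucleotide, which fixes the part of the transcript that was read. They are given 5′ to 3′ as the scanner files hold them, with positions in canFam3, the build named in the file headers. The first 4 belong to the BMP ligand, its receptor and the activin subunit and antagonist that the text returns to, and the next 3 to TGFB1 and ID3.
BMP4 (chr8:29997839-29997898, minus strand): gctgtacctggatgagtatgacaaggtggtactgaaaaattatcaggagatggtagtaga
BMPR1B (chr32:17957971-17958030, plus strand): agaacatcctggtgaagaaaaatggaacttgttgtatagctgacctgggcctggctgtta
INHBA (chr18:8283711-8283770, plus strand): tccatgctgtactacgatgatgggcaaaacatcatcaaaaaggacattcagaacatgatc
FST (chr4:61781413-61782137, minus strand): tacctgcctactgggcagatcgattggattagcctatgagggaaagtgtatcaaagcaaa
TGFB1, brightest probe (chr1:112637036-112642873, plus strand): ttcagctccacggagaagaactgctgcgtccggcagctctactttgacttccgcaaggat
TGFB1, other probe (chr1:112642941-112643617, plus strand): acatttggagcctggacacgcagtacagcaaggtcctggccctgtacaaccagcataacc
ID3 (chr2:75880891-75880950, plus strand): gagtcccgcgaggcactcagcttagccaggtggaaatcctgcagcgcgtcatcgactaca
Each of these 60-base sequences could be read in at least 1 frame without a stop codon. The FST probe and both TGFB1 probes covered 725, 5838 and 677 bases of genome, more than their own length, so that they cross exon junctions. The files do not say in which exon the others fall.

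Most of the pathway was expressed, and few of its genes passed the adjusted threshold, a share near that of the array. Of the 46 genes, 37 were tested because 1 or both groups had all their arrays well above background, and 36 of these were above it on all 6 arrays. In limma's moderated test, with Benjamini-Hochberg adjustment over all 26535 tested probes, SMAD4 was higher in mixed culture and BMP4 and BMPR1B were lower. These 3 genes were 8.11% of the 37 tested, whereas 11.2% of all tested probes were called, 5.5% of them higher and 5.72% lower. In 12 of the 37 genes, or 32.4%, the ranges of the groups were separate (7 higher and 5 lower in mixed culture), against 37.2% of all tested probes (17.8% higher and 19.4% lower). The median log2 difference of mixed minus alone was -0.004 over the members and -0.004 over all tested probes, and 19 of the 37 differences were smaller than 0.2. At an unadjusted p under 0.05, 7 genes were higher and 6 lower, but the share of all probes at that level was not counted. The share of calls and the median therefore stood near those of the array as a whole.

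The calls depended on how the samples were paired and on single arrays. With the replicate number as a block, 3 members were called higher (SMAD4, ID3 and INHA) and 4 lower (BMP4, BMPR1B, INHBA and TGFB1), against 10.6% of all probes. Without alone replicate 1, 4 were called higher (SMAD4, SMAD1, GREM1 and INHA) and 4 lower (BMP4, BMPR1B, INHBA and BMPR2), against 26.4% of all probes. No member was called without alone replicate 2, alone replicate 3, mixed replicate 2 or mixed replicate 3, where 0.09%, 0.0263%, 0.0338% and 0.045% of all probes were called. Without mixed replicate 1, ID3 was called higher and TGFB1 lower, against 7.46% of all probes. Alone replicate 1 was the alone array closest to the mixed mean for 16 of the 37 members (43.2%) and for 47.2% of all tested probes.

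**Figure D1:**
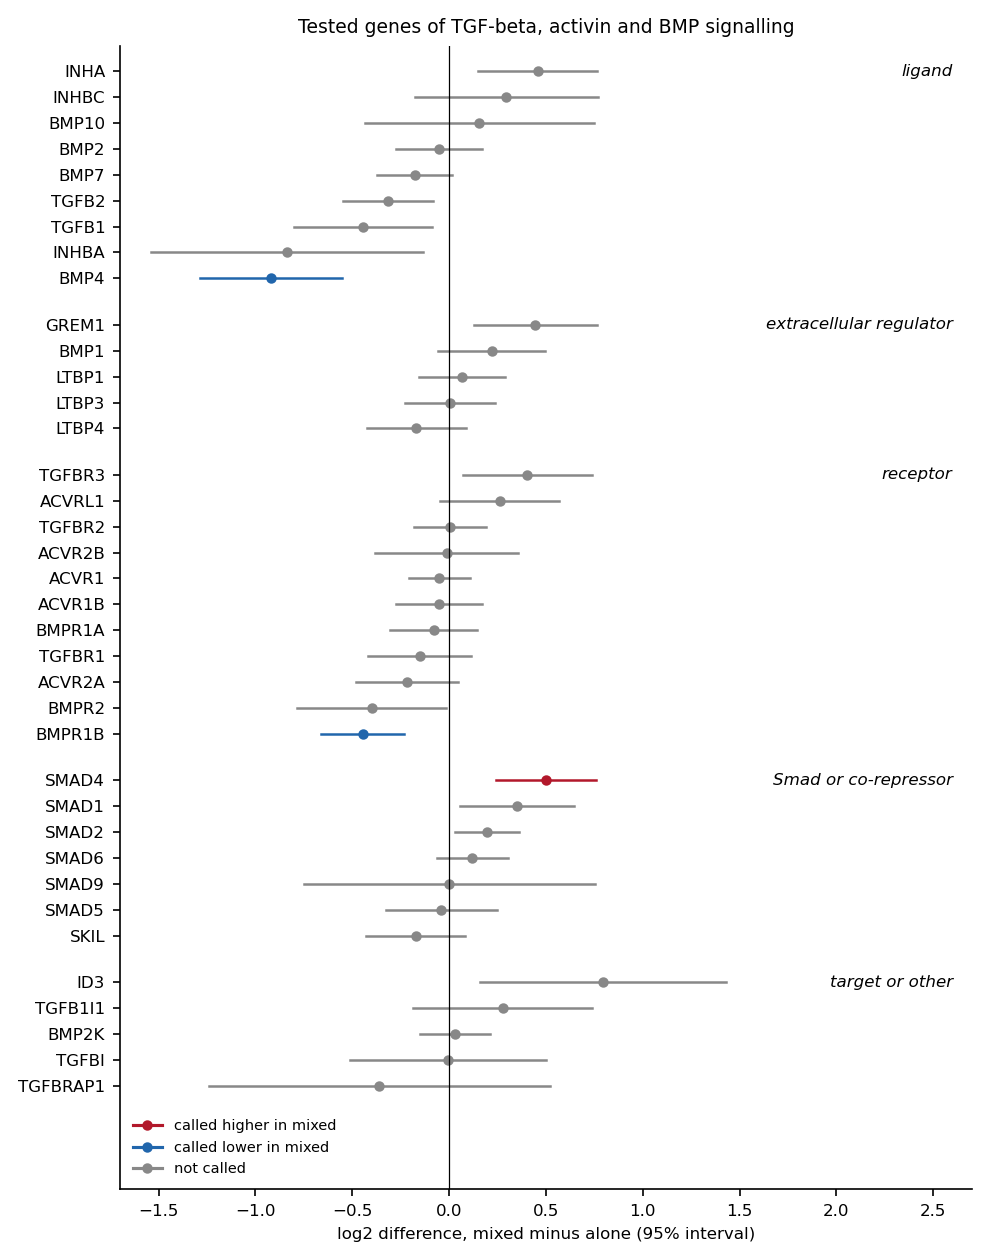
Log2 difference of mixed minus alone for the 37 tested genes, grouped by role, with points for the estimate of limma's moderated test and lines for its 95% interval. BMP4 and BMPR1B (blue) and SMAD4 (red) passed the adjusted threshold, and 19 of the points lie within 0.2 of zero.

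Among the ligands, BMP4 fell. BMP4 is a BMP ligand with roles in kidney and gut development. Its scaled signal (the processed intensity after each array was brought to a common 75th percentile of 639) was 2397, 3421 and 3455 on alone replicates 1 to 3 and 1508, 1658 and 1667 on mixed replicates 1 to 3. All mixed arrays lay below all alone arrays, and the log2 difference was -0.92 (SE 0.153, limma adjusted p = 0.022), a 1.89-fold lower level. In RNA from a sorted population, fewer cells expressing a gene and less of its RNA per cell cannot be told apart.

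INHBA, the subunit of activin A, gave 1185, 2519 and 2267 on the alone arrays and 886, 1091 and 1231 on the mixed arrays. Alone replicate 1 fell inside the mixed range, and the log2 difference of -0.84 (SE 0.293) did not pass in limma's test (adjusted p = 0.11). It passed with the replicate block (adjusted p = 0.0469, limma; range over the alternatives 0.00864 to 0.285) and without alone replicate 1, where the difference was -1.17. INHA, the alpha subunit that forms inhibins, which oppose activin, gave 23.9, 18.5 and 18.2 alone and 29.3, 28.5 and 25 mixed. Its groups did not overlap, and its log2 difference of 0.46 (SE 0.129) had a limma adjusted p of 0.068 and passed with the block (0.0483; range over the alternatives 0.0123 to 0.297). The INHA probe was dim, with a mean log2 signal of -4.99 alone and -4.54 mixed. The lowest signal that counted as well above background was -6.14 to -5.44 over the arrays. Over the alternatives the INHA difference ran from 0.12 to 0.58. The INHBC difference was 0.30 (SE 0.197, limma adjusted p = 0.351). INHBB and INHBE, the other activin beta subunits in the set, were not well above background on any array.

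TGFB1, the most widely expressed TGF-beta ligand, had 2 named probes, and both read lower in mixed culture without overlap. The brightest gave 675, 547 and 580 alone and 540, 397 and 398 mixed, a log2 difference of -0.44 (SE 0.149, limma adjusted p = 0.1). The other differed by -0.37 (SE 0.137, limma adjusted p = 0.127). The brightest was called with the replicate block (adjusted p = 0.0424, limma; range over the alternatives 0.0424 to 0.261). Another pair of probes, named only by accession but described as TGFB1 in the array's annotation, gave log2 differences of 0.11 (SE 0.0785) and -0.002 (SE 0.118). Their limma adjusted p-values were 0.399 and 0.994, so 2 of the 4 probes assigned to TGFB1 had separate groups and the other 2 had overlapping ones.

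TGFB2, a second TGF-beta isoform, gave 131, 127 and 142 alone and 96.1, 108 and 117 mixed. The groups did not overlap for either of its 2 probes, with log2 differences of -0.32 (SE 0.0973, limma adjusted p = 0.0827) and -0.19. TGFB3 was not well above background on any array. BMP7, a BMP ligand of the developing and adult kidney tubule, was read lower by all 4 of its probes, each without overlap, from -0.18 to -0.34 on the log2 scale. The brightest (-0.18, SE 0.0805, limma adjusted p = 0.188) was not called and 1 other was (-0.34, SE 0.0777, adjusted p = 0.0426), although not with the replicate block. These 4 probes formed 2 pairs that overlap in the genome and so are not independent readings. The pair that includes the called probe is shown because its members share 44 bases of BMP7 but are not identical there.
BMP7, first probe (chr24:42260309-42260368, minus strand): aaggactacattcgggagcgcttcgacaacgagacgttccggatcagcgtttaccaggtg
BMP7, second probe, called (chr24:42260293-42260352, minus strand): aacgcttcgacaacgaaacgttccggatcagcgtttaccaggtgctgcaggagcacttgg
Counted from the 5′ end of the first probe, the second differs from it at G18A and G33A. The log2 differences were -0.26 for the first probe and -0.34 for the second.

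BMP2, a second ligand of the BMP4 type, gave 642, 691 and 708 alone and 725, 645 and 602 mixed, with overlapping groups and a 95% interval of the log2 difference from -0.28 to 0.17. BMP10 differed by 0.16 (SE 0.247). BMP5 was above background on 1 array and BMP15 on none, and neither was tested. Over the 9 tested ligands the median log2 difference was -0.18, with 3 higher and 6 lower by sign and BMP4 the only call.

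**Figure D2:**
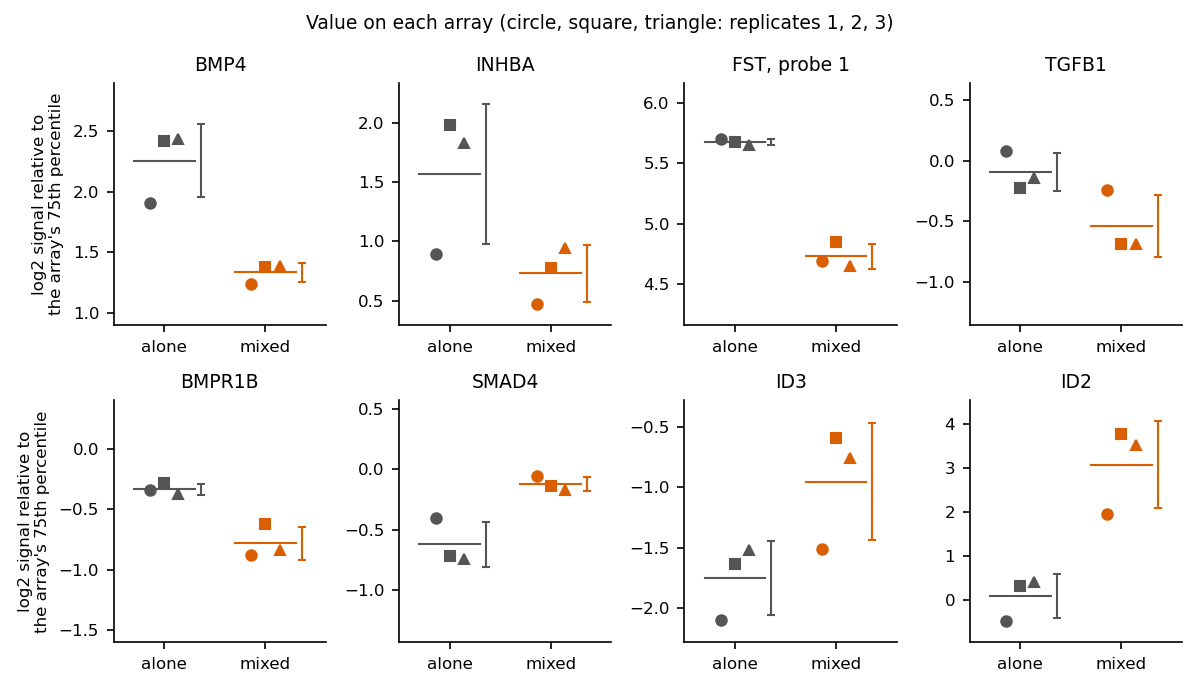
Log2 signal relative to each array's 75th percentile for 8 probes, with replicates 1, 2 and 3 as circle, square and triangle, the group mean as a horizontal line and the SD as a bar (n = 3). Alone replicate 1 lies apart from replicates 2 and 3 for BMP4 and INHBA, and mixed replicate 1 lies apart for ID3 and ID2.

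Of the secreted antagonists, follistatin fell on both of its probes. Follistatin (FST) binds activins with high affinity and keeps them from their receptors, and it is itself induced by activin in many cells. The gene is not named FST on this array, and its probes were identified from the array's description text after values were seen, so the 2 probes are given as an addition to the 46 genes. The first, whose sequence is shown above, gave 33181, 32642 and 32119 on the alone arrays and 16448, 18395 and 16030 on the mixed arrays. The second (chr4:61780450-61780509) gave 4137, 4042 and 3899 alone and 2135, 2234 and 2240 mixed. The replicates of each group stood close together and far from the other group, with log2 differences of -0.95 (SE 0.079) and -0.87 (SE 0.0676), both with a limma adjusted p of 0.0103. Each was called in 9 of 14 alternatives and was lower in all 14. The alternatives without a call were the fit with no filter on dim probes and the fits without alone replicate 2, alone replicate 3, mixed replicate 2 or mixed replicate 3, with adjusted p-values of at most 0.0733.

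GREM1 encodes gremlin, which binds BMP2, BMP4 and BMP7. Its probe gave 136, 99 and 101 alone and 153, 150 and 150 mixed, and all mixed arrays lay above all alone arrays. The log2 difference of 0.45 (SE 0.132) did not pass (limma adjusted p = 0.0764) except without alone replicate 1 (0.60). BMPER, another extracellular BMP regulator, was not above background on any array. BMP1, a metalloprotease that processes procollagen and cleaves the BMP antagonist chordin, differed by 0.22 (SE 0.116, limma adjusted p = 0.246).

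The latent TGF-beta binding proteins, which tether latent TGF-beta to the matrix, did not pass. LTBP1 gave 33258, 27165 and 28446 alone and 31079, 30618 and 31064 mixed on its brightest probe, with a 95% interval of the log2 difference from -0.16 to 0.29. Of its 4 tested probes 2 were higher and 2 lower, from -0.26 to 0.07, all with overlapping groups. The lowest (-0.26, SE 0.135, limma adjusted p = 0.247) was called lower without alone replicate 1 (-0.40, adjusted p = 0.0232). LTBP3 gave 1279, 1183 and 1058 alone and 1250, 1175 and 1099 mixed, with an interval from -0.23 to 0.24. LTBP4 gave 430, 491 and 381 alone and 392, 393 and 368 mixed, with an interval from -0.42 to 0.09. For all 3 genes the groups overlapped and the interval held zero. LTBP2 was above background on 4 arrays spread over both groups and was not tested.

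Among the receptors, BMPR1B fell. BMPR1B (ALK6) is a type I receptor for BMP ligands. It gave 503, 524 and 492 alone and 348, 414 and 356 mixed, so that the groups stood apart. The log2 difference was -0.45 (SE 0.0894, limma adjusted p = 0.0313), a 1.36-fold lower level. BMPR1A (ALK3), another BMP type I receptor, gave 35.1, 39.5 and 33.8 alone and 37.1, 32.5 and 33.1 mixed, with an interval from -0.30 to 0.15. This was the only probe named BMPR1A, and a brighter probe next to it in the genome is given below with TGFBR1. BMPR2, the BMP type II receptor, gave 176, 255 and 266 alone and 165, 179 and 176 mixed. Here alone replicate 1 fell inside the mixed range, and the log2 difference of -0.40 (SE 0.162, limma adjusted p = 0.148) became -0.59 and was called without that array.

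TGFBR3 (betaglycan), a co-receptor that presents TGF-beta and binds inhibin, was read higher in mixed culture by all 6 of its tested probes, by 0.14 to 0.57 on the log2 scale, and by 5 of the 6 when the arrays were scaled on spike-ins. Its brightest probe gave 792, 1098 and 1028 alone and 1169, 1286 and 1377 mixed, which did not overlap. The log2 difference of 0.40 (SE 0.139) did not pass (limma adjusted p = 0.106), and no alternative called it.

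The TGF-beta receptors themselves gave small differences. TGFBR2, the type II receptor, gave 5223, 5711 and 5980 alone and 5553, 5647 and 5727 mixed on its brightest probe, with an interval from -0.18 to 0.19. Its 3 tested probes differed by -0.17 to 0.003, with 2 lower and 1 of the 3 without overlap. None was called, and all 3 were lower after spike-in scaling. TGFBR1 (ALK5), the type I receptor, gave 960, 1055 and 1216 alone and 976, 886 and 1037 mixed, a log2 difference of -0.15 (SE 0.112, limma adjusted p = 0.395), and its other tested probe differed by -0.13. A further probe is described on the array as similar to mouse TGF-beta receptor type 1, and it was higher in mixed culture by 0.34 (SE 0.08, limma adjusted p = 0.0448), but not with the replicate block (0.074; range over the alternatives 0.0378 to 0.447). It lies at chr4:34578864-34578923, next to the BMPR1A probe on that chromosome and not on the chromosome of the TGFBR1 probes. It is not counted as TGFBR1 here. Its scaled signal was 75 to 83.5 alone and 96.5 to 107 mixed, above the 33.8 to 39.5 and 32.5 to 37.1 of the BMPR1A probe. Whether it reads BMPR1A was not tested. Another probe for the same described transcript was above background on no array.

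The activin receptors had intervals that held zero. ACVR1 (ALK2), a type I receptor for BMPs and activin, differed by -0.05 (SE 0.0656). ACVR1B (ALK4), the activin type I receptor, differed by -0.05 (SE 0.0929). The type II receptors ACVR2A and ACVR2B differed by -0.22 (SE 0.11) and -0.01 (SE 0.154). ACVRL1 (ALK1), best known in endothelium, differed by 0.26 (SE 0.128). The limma adjusted p-values of these 5 genes ran from 0.216 to 0.965, and ACVR1C was above background on no array.

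Of the Smads, SMAD4 rose, on 1 of its 2 probes. SMAD4 is the common partner of all receptor Smads. Its brightest probe (chr1:23882017-23882076) gave 482, 389 and 382 alone and 615, 580 and 568 mixed, so that all mixed arrays lay above all alone arrays. The log2 difference was 0.50 (SE 0.108, limma adjusted p = 0.0364), a 1.41-fold higher level. The second probe is shown because it reads another part of SMAD4 and was not called.
SMAD4, second probe (chr1:23912291-23912794, minus strand): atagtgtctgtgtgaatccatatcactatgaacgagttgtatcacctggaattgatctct
It covered 504 bases of genome and so crosses an exon junction. It gave 20, 27.1 and 27.1 alone and 24.9, 26.1 and 27.7 mixed, a log2 difference of 0.10 (SE 0.134, limma adjusted p = 0.663). This second probe was dim. Its mean log2 signal was -4.70 alone and -4.61 mixed, not far above the lowest signal that counted as well above background (-6.14 to -5.44 over the arrays). The difference between the 2 probes was not tested.

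SMAD1, a receptor Smad of the BMP branch, was read higher by all 4 of its probes, by 0.35 to 0.73 on the log2 scale, and by all 4 after spike-in scaling. The brightest gave 2139, 1580 and 1661 alone and 2240, 2322 and 2243 mixed, which did not overlap (log2 difference 0.35, SE 0.123, limma adjusted p = 0.109). A dimmer probe was called (0.48, SE 0.115, adjusted p = 0.0467), although not with the replicate block, and the gene was called when its probes were averaged. The SMAD1 probe with the largest difference was dim, at 20.4 to 22.5 alone and 28.8 to 50.4 mixed. Another was as dim, at 17.3 to 25.2 alone and 25 to 30 mixed, and its groups overlapped. SMAD5, of the same branch, differed by -0.04 (SE 0.119), and SMAD9 by 0.002 with a wide interval, from -0.75 to 0.75. SMAD2, the receptor Smad for TGF-beta and activin, gave 20848, 21777 and 20208 alone and 23328, 24766 and 23868 mixed. On this brightest probe the groups did not overlap, and the log2 difference of 0.20 (SE 0.0697) did not pass (limma adjusted p = 0.114). The other SMAD2 probe differed by 0.05 (SE 0.0845, limma adjusted p = 0.739), with overlapping groups. After spike-in scaling 1 of the 2 probes was higher and 1 lower.

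The inhibitory SMAD6 gave 2379, 2690 and 2419 alone and 2721, 2721 and 2685 mixed, with overlap and an interval from -0.06 to 0.30. SMAD7, the inhibitory Smad of the TGF-beta branch, was above background on 2 alone arrays and no mixed array, and was not tested. SKIL (SnoN), a co-repressor of SMAD2 and SMAD3, gave 84.9, 88.1 and 98 alone and 91, 73.9 and 76.1 mixed, a log2 difference of -0.17 (SE 0.108, limma adjusted p = 0.319). By sign, 5 of the 7 tested genes of this class were higher in mixed culture, and their median log2 difference was 0.12.

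**Figure D3:**
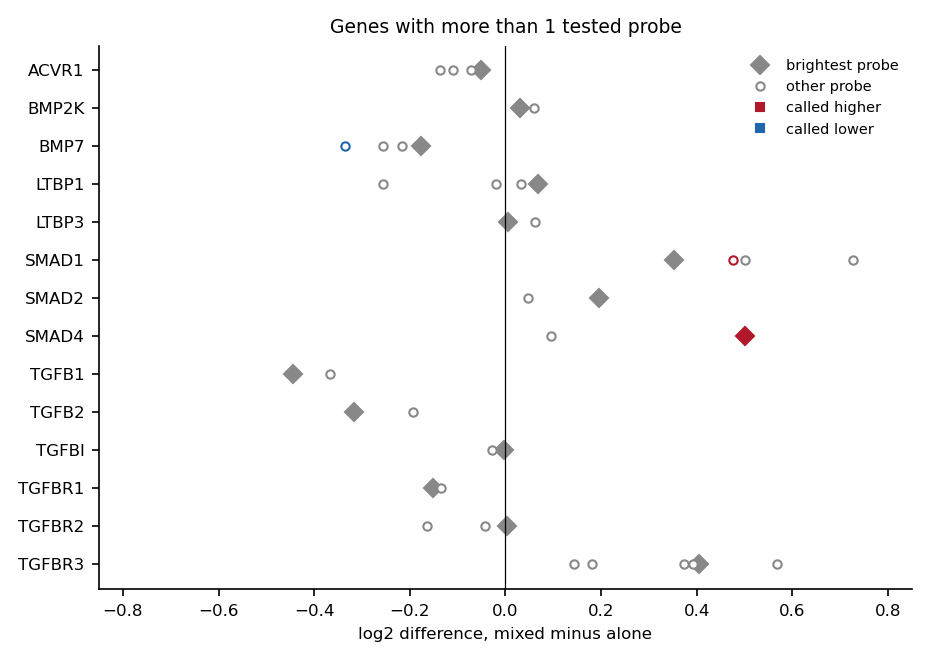
Log2 difference of mixed minus alone for each tested probe of the 14 genes with more than 1, with the brightest probe as a filled diamond and the others as open circles. The probes of 12 genes lie on 1 side of zero, while those of LTBP1 and TGFBR2 lie on both, and SMAD4 has 1 called probe and 1 near zero.

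Of the ID genes, ID2 rose, and ID3 had the largest positive difference of the 37 tested genes. ID proteins lack a DNA-binding region and block basic helix-loop-helix factors. ID3 gave 149, 206 and 222 alone and 225, 422 and 378 mixed, and mixed replicate 1 stood only just above the highest alone array. Its log2 difference of 0.80 (SE 0.265) did not pass (limma adjusted p = 0.0987), but it passed with the replicate block (0.0344; range over the alternatives 0.0344 to 0.254) and without mixed replicate 1, where the difference was 1.07. A probe described on the array as ID2 (chr17:5958703-5958762), and identified only after values were seen, gave 454, 797 and 851 alone and 2467, 8674 and 7334 mixed. Its groups stood far apart. The log2 difference was 2.998 (SE 0.5, limma adjusted p = 0.0222), or 7.99-fold, and it was higher in all 14 alternatives and called in 8, although not with the methods' t-test or without the filter on dim probes. Without mixed replicate 1 it was 3.56 (called), and without mixed replicate 2, mixed replicate 3, alone replicate 2 or alone replicate 3 it was 2.65 to 3.16 and not called (adjusted p of at most 0.0964).

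The remaining genes of the set did not pass. TGFBI, a secreted matrix protein induced by TGF-beta, gave 581, 360 and 377 alone and 497, 439 and 358 mixed, with an interval from -0.51 to 0.50. TGFB1I1 (Hic-5), a focal adhesion protein, differed by 0.28 (SE 0.193). BMP2K, a kinase named for its induction by BMP2, differed by 0.03 (SE 0.0761), and TGFBRAP1, a receptor-associated protein, by -0.36 (SE 0.368) while being above background on 5 arrays. The limma adjusted p-values of these 4 genes ran from 0.372 to 0.993.

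To read the output of the pathway, 35 named TGF-beta and BMP target genes and 51 other named components that the rule does not take were followed in the same fit. Of the 65 that were tested, 2 were called higher and 6 lower, or 12.3%, against the 11.2% of all tested probes. Among 27 tested target genes, 1 was called higher and 4 lower (18.5%), and their median log2 difference was -0.11. PMEPA1, a TGF-beta-induced inhibitor of Smad signalling, gave 7034, 12441 and 11686 alone and 4196, 3787 and 3388 mixed, a log2 difference of -1.42 (SE 0.223, limma adjusted p = 0.0195). SNAI2 (Slug), a repressor of E-cadherin, gave 2858, 3058 and 3148 alone and 1839, 1432 and 1608 mixed, a difference of -0.90 (SE 0.107, adjusted p = 0.0136). Both genes stood apart on all arrays. CDKN1A (p21), a cell cycle inhibitor that p53 also induces, fell by 0.86 on the log2 scale (SE 0.149, limma adjusted p = 0.0233), and COL4A1, a basement membrane collagen, fell by 0.53 (SE 0.0746, adjusted p = 0.0176). Of 14 alternatives, PMEPA1 and CDKN1A were called in 8, and SNAI2 and COL4A1 in 9.

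CDKN2B (p15), a cell cycle inhibitor induced by TGF-beta, was the 1 called higher. It gave 2676, 1420 and 1393 alone and 5253, 3507 and 3527 mixed, with no overlap and a log2 difference of 1.21 (SE 0.29, limma adjusted p = 0.0465). It was higher in all 14 alternatives and called in 6 of them. It was not called by the test named in the methods, with spike-in scaling or no filter on dim probes, nor without alone replicate 2, alone replicate 3 or any 1 mixed array (adjusted p at most 0.151). CYR61 (CCN1), a matricellular target, differed by 0.05 (SE 0.0859, limma adjusted p = 0.75). No probe carried the name ID4 or the name of connective tissue growth factor.

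**Figure D4:**
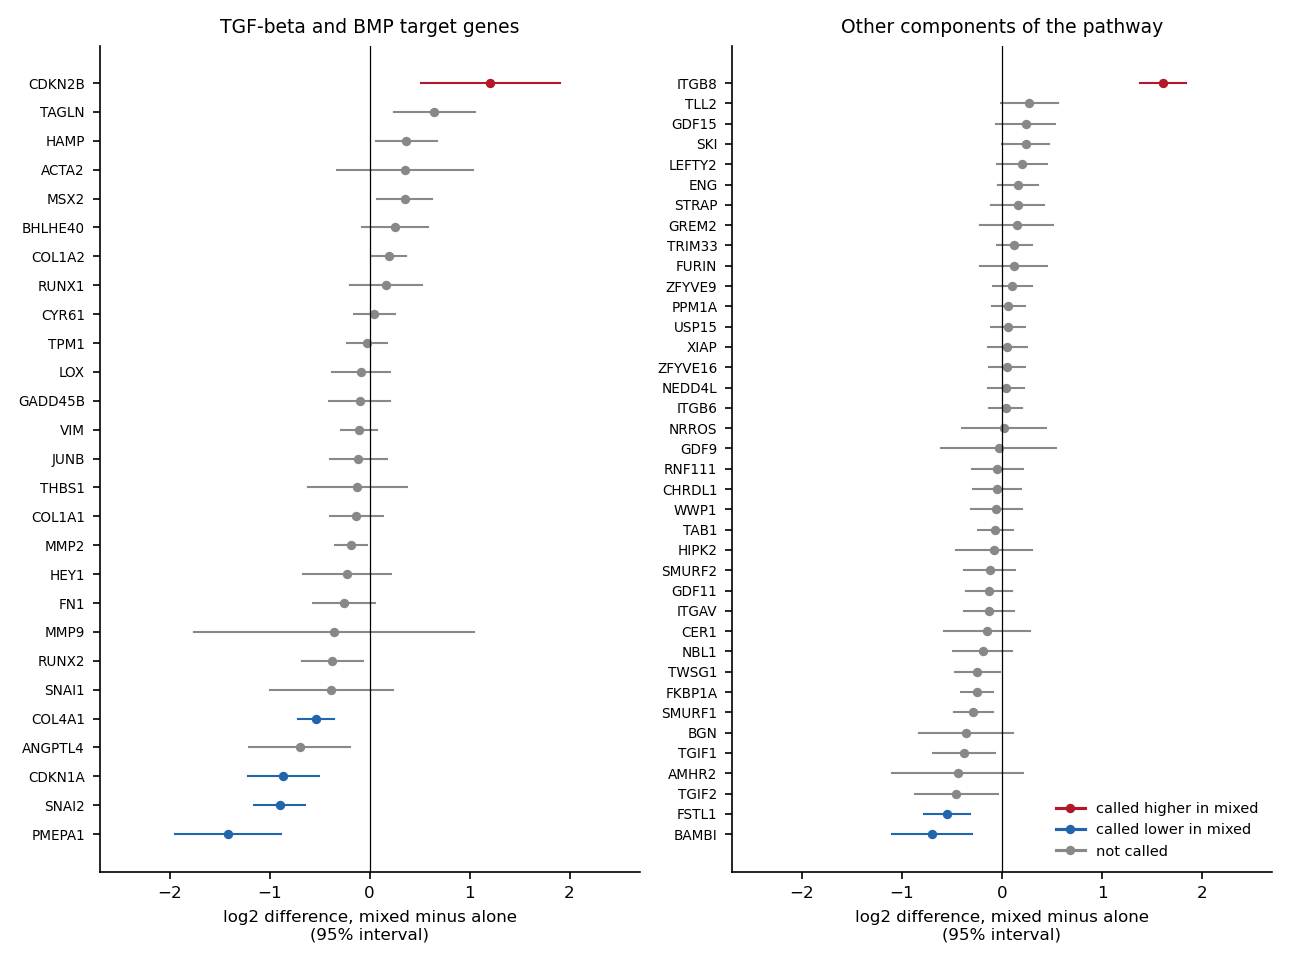
Log2 difference of mixed minus alone, with 95% interval, for the 27 tested target genes (left) and the 38 tested other components (right). CDKN2B and ITGB8 (red) were called higher, and PMEPA1, SNAI2, CDKN1A, COL4A1, BAMBI and FSTL1 (blue) lower.

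Among 38 tested components, ITGB8 was called higher, and BAMBI and FSTL1 lower (7.89%), with a median log2 difference of -0.04. ITGB8 is the beta subunit of the alphavbeta8 integrin, which releases active TGF-beta from its latent complex. It gave 332, 265 and 296 alone and 888, 923 and 910 mixed, with every mixed array far above every alone array. The log2 difference was 1.61 (SE 0.0964, limma adjusted p = 0.00492), or 3.06-fold, and it was called in 12 of 14 alternatives, the exceptions being the fits without alone replicate 3 and without mixed replicate 2, with adjusted p-values of 0.0509 and 0.0506. Its alpha partner ITGAV differed by -0.13 (SE 0.104), and ITGB6, the other epithelial integrin subunit that activates TGF-beta, by 0.04 (SE 0.07). BAMBI, a pseudoreceptor that inhibits TGF-beta and BMP receptors, gave 2370, 3143 and 3365 alone and 2150, 1655 and 1657 mixed. Its log2 difference of -0.70 (SE 0.167) passed (limma adjusted p = 0.0463) but not with the replicate block (0.0813; range over the alternatives 0.0144 to 0.152). FSTL1, a secreted protein related to follistatin that binds BMP4, fell by 0.55 (SE 0.0976, limma adjusted p = 0.0243), and was called in 7 of 14 alternatives.

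Markers of cell types were read on the same arrays, and Ras-MAPK output genes as a sign of normal MDCK cells left in the sort. Of 14 epithelial and kidney tubule markers, 13 were above background on all 6 arrays (GRHL2 on none) and none was called in limma's test. At an unadjusted p under 0.05 there were 6 of these markers, a level not counted over all probes. With the replicate block 2 were called higher, against 5.34% of all probes. Their summed scaled signal was 453004 to 555752 alone and 481763 to 561287 mixed. Of 9 mesenchymal markers, 5 were above background on all arrays and the defining PDGFRA, POSTN and COL6A3 on none. CDH2 (N-cadherin) was the 1 called, at -1.25 (SE 0.291, limma adjusted p = 0.0434). The other 4 tested were higher by sign, 3 of them without overlap, and none was called. Over all tested probes, 17.8% were higher without overlap. The list's median log2 difference was 0.19. The sums were 1248 to 1872 alone and 975 to 1269 mixed. Of 7 leukocyte and endothelial markers, 4 were above background on all 6 arrays, and PTPRC and CDH5 on none. Of the 5 tested, none was called in limma's test (0 at an unadjusted p under 0.05). The list's sums were 3361 to 4856 alone and 3711 to 4904 mixed. Of 15 Ras-MAPK output genes, 14 were tested, 3 were called lower (FOSL1, CCND1 and EREG; 21.4% against 11.2% of all probes) and none higher (1 with the replicate block). By sign 11 were lower and 3 higher, with a median log2 difference of -0.36. Their sums were 101332 to 104205 alone and 82170 to 94550 mixed, with no overlap. The part of these genes in the lower values of BMP4, FST and PMEPA1 was not tested. Whether normal cells left in the mixed sort lowered any of these values was not tested either. All 8 spike-in controls that were above background on every array had a higher mean on the mixed slide after scaling to the 75th percentile. The differences were 0.10 to 0.24 on the log2 scale. Their mean scaled log2 signal was 1.97, 1.64 and 1.74 on alone replicates 1 to 3 and 1.98, 1.99 and 1.87 on mixed replicates 1 to 3, so the groups overlapped.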

How the data were processed

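RNA of 6 sorted samples (3 alone, 3 mixed) was measured on 1-colour Agilent Canine (V2) 4x44K arrays. The authors deposited scanner files from Agilent Feature Extraction 10.10.1.1 holding an intensity per spot (background-subtracted and detrended), and a table of log2 values for 26529 probes, which equals the log2 processed intensity minus each array's 75th percentile within 0.00155. From the processed intensity, control and flagged spots were dropped, spots of a probe averaged, and log2 values centred on each array's 75th percentile over 43603 probes. This percentile was 592 to 700 intensity units, 60.8% to 66.4% of probes were well above background and no spot was saturated. With 3 arrays a group, the number of arrays limits the precision.

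Mixed and alone were compared with limma 3.58.1 (lmFit, eBayes; R 4.3.3), two-sided, over 26535 probes, at an adjusted p of 0.05. A gene's brightest probe stood for it. On simulated data, 78% of 2-fold and 94% of 4-fold changes were recovered, and 13 unchanged probes were called. The simulated noise was independent between probes and arrays, with no slide effect and no array departing as a whole. These rates need not hold for the real arrays. Deviations of same-numbered samples correlated at 0.349, 0.162 and 0.296, and those of unlike-numbered samples at -0.329 to 0.238 (alone 2 with mixed 3 the highest, above 0.162 for the second pair). The number is also the position on the slide. The main fit had no block, and a fit with the number as a block is given beside the results whose call it changed. Alternatives were quantile normalization, spike-in scaling, normexp with an offset of 50, no filter or a stricter filter on dim probes (all 6 arrays), the deposited table, the replicate block, the methods' t-test, a 2-fold threshold, the mean over probes and leaving out each array. The members, lists and named genes were chosen with earlier results of these data known. All members may be named, and list genes past the threshold were named. 1 target gene is not reported here and was left out of its list. CYR61, ITGAV, ITGB6 and the called marker and Ras-MAPK genes were named after their values were seen.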

Additional observations from a re-analysis of the deposited data

How the results depend on the processing

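Over the members, 1 was called higher and 2 lower. The counts were 0 and 0 at 2-fold, with no filter on dim probes (12 probes called in all) and with the t-test of the methods (826), 0 and 1 (BMP4) with spike-in scaling (935), 3 and 4 with the replicate block, and 2 and 2 with the mean over probes of a gene, which added SMAD1. Leaving out 1 array gave 0 to 4 higher and 0 to 4 lower, while 7 to 7335 of all probes were called against 2978. In the pathway lists, with 2 higher and 6 lower, the block gave 2 and 6, no filter 1 and 0, the t-test 1 and 2, spike-in scaling 1 higher, the 2-fold threshold 1 lower, and leaving out 1 array 0 to 5 higher and 0 to 11 lower. The 3 called members were also called with quantile normalization, with normexp, with the stricter filter (all 6 arrays) and on the deposited table.

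Spike-in scaling moved the median of all probes to -0.165 and that of the members to -0.165. Of 37 tested members, 7 turned sign under spike-in scaling, 2 each with normexp and with the mean over probes, 1 with quantile normalization and 1 to 5 on leaving out an array, none of them called in either fit. By more than the standard error, signs turned for BMP2K (-0.13), LTBP1 (-0.094), LTBP3 (-0.157), SMAD6 (-0.041) and TGFBR2 (-0.158) under spike-in scaling, for LTBP1 with the mean over probes (-0.044), for BMPR1A with normexp (0.024) and for TGFBI without alone replicate 1 (its range without 1 array was -0.13 to 0.215). The block on replicate number changed no member's call other than ID3, INHA, INHBA and TGFB1. Slide as a block could not be fitted, because no slide carried both groups. The causes were not tested. The design has 3 arrays a group, so no exact permutation test could give a p under 0.1.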
